A study of Mus musculus with 4 samples.

Results

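The proteasome genes were taken as all probe sets whose gene symbol begins with Psma, Psmb, Psmc, Psmd, Psme, Psmf or Psmg followed by a digit, with no filter on level. There were 48 of them among 25206 probe sets, and each probe set stands for 1 gene, named by its Entrez number. RNA was measured in erythroblasts, nucleated precursors of red cells, taken from E14.5 mouse fetal livers and selected with magnetic beads for the erythroid surface marker Ter119. The labels give neither strain nor genotype. The RNA of 2 biological replicates came down with an antibody against Cpeb4, an RNA-binding protein (Cpeb4 IP). The controls were 1 precipitate with rabbit IgG, which stands for RNA that comes down without that antibody, and 1 sample of total input RNA with no antibody. The comparison addresses which mRNAs come down with Cpeb4.

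The proteasome is the large protease that degrades proteins tagged with ubiquitin. Its barrel-shaped core particle is built of rings of alpha subunits (Psma genes), which gate the entrance, and rings of beta subunits (Psmb genes), some of which cut peptide bonds. A regulatory particle caps the core: its base holds a ring of ATPases (Psmc genes) that unfold substrates, and its other subunits (most Psmd genes) form its scaffold and lid, and a few of them bind or remove ubiquitin. Dedicated chaperones (Psmg genes, Psmd5, Psmd9 and Psmd10) assemble both particles, and other caps (Psme genes) open the core without ubiquitin. Maturing red cells dispose of most of their proteins, and the ATP-dependent ubiquitin pathway was worked out in extracts of reticulocytes.

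The 48 genes comprised 8 of the alpha ring, 5 constitutive and 4 immune or thymus forms of the beta ring, 6 base ATPases, 11 non-ATPase subunits, 7 assembly chaperones, 4 activators and 1 inhibitor. In addition, 2 genes met the rule by name without being subunits: Psmc3ip, a meiotic recombination factor first found as a partner of Psmc3, and Psme3ip1, a partner of Psme3. Psmb3 and Psmb5 were not analysed here.

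All values are the authors' deposited log2 expression values, and all differences are on the log2 scale. The arrays had medians of 4.15 and 4.17 in the IP replicates, 4.49 in IgG and 4.13 in input. The IgG array was narrower, with a 90th percentile of 7.12, against 7.85 and 7.87 in the IP and 8.02 in input, so genes of high level tended to be lower on it. Erythroid markers were high on every array: 7 measured ones, among them Hbb-b1, Slc4a1 and Tfrc, lay between 8.22 and 12.20. Of 17 tested markers of macrophages, megakaryocytes, neutrophils and hepatocytes, 13 rose in the IP against input and none fell, while against IgG 10 rose and 1 fell. Of the 7 erythroid markers 3 fell against input (Klf1, Gata1 and Epor) and none changed against IgG. The summed values of all 19 measured markers of other cell types, 2 lymphoid ones included, were 125 and 126 in the IP, 109 in IgG and 94.4 in input. These sums add log2 values, and markers of low level add to them too, so they do not measure the amount of marker RNA. The 2 lymphoid markers were too low to be tested. The part of other cell types in the results below was not tested.

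Differences of 1, that is 2-fold, in both IP replicates were counted first, since each control was a single array. The differences were also tested with limma over 13911 genes whose mean level reached 3.84, 45 of the 48 among them, with Benjamini-Hochberg adjustment and a threshold of 0.05. "Rose" and "fell" are used only of genes that passed this test. The spread came from the IP replicates alone (1 residual degree of freedom), and the same spread was taken to hold for the control arrays. Nothing on the labels beyond "biological" says how the replicates were kept apart, so the p-values measure the spread between these samples, which may be technical. Psma5, Psma8 and Psmb11 lay below the level needed for testing. The IP replicates had equal values in 9 of the 48 genes (18.8%), where 21.8% of all tested genes and 17.7% of those at like input levels, as defined with the next result, had them.

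Most proteasome mRNAs lay between the controls, above IgG and below input. In 28 of the 48 genes (58.3%) both IP replicates were higher than IgG and lower than input, where 22.2% of all tested genes were so placed. Among the 3672 tested genes with input values between the lower and upper quartiles of the proteasome genes, 6.87 and 9.07, the share was 44.6%. The median input value was 7.78 in that set and 8.34 in the 48, so the levels were only roughly alike. Proteasome genes outside these quartiles were compared with the same set. None of the 48 was 2-fold above both controls in the IP, where 2.49% of all tested genes and 2.59% of those at like input levels were. None was 2-fold lower than both, where only 70 of the 13911 tested genes and 30 of the 3672 at like input levels were.

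**Figure D1:**
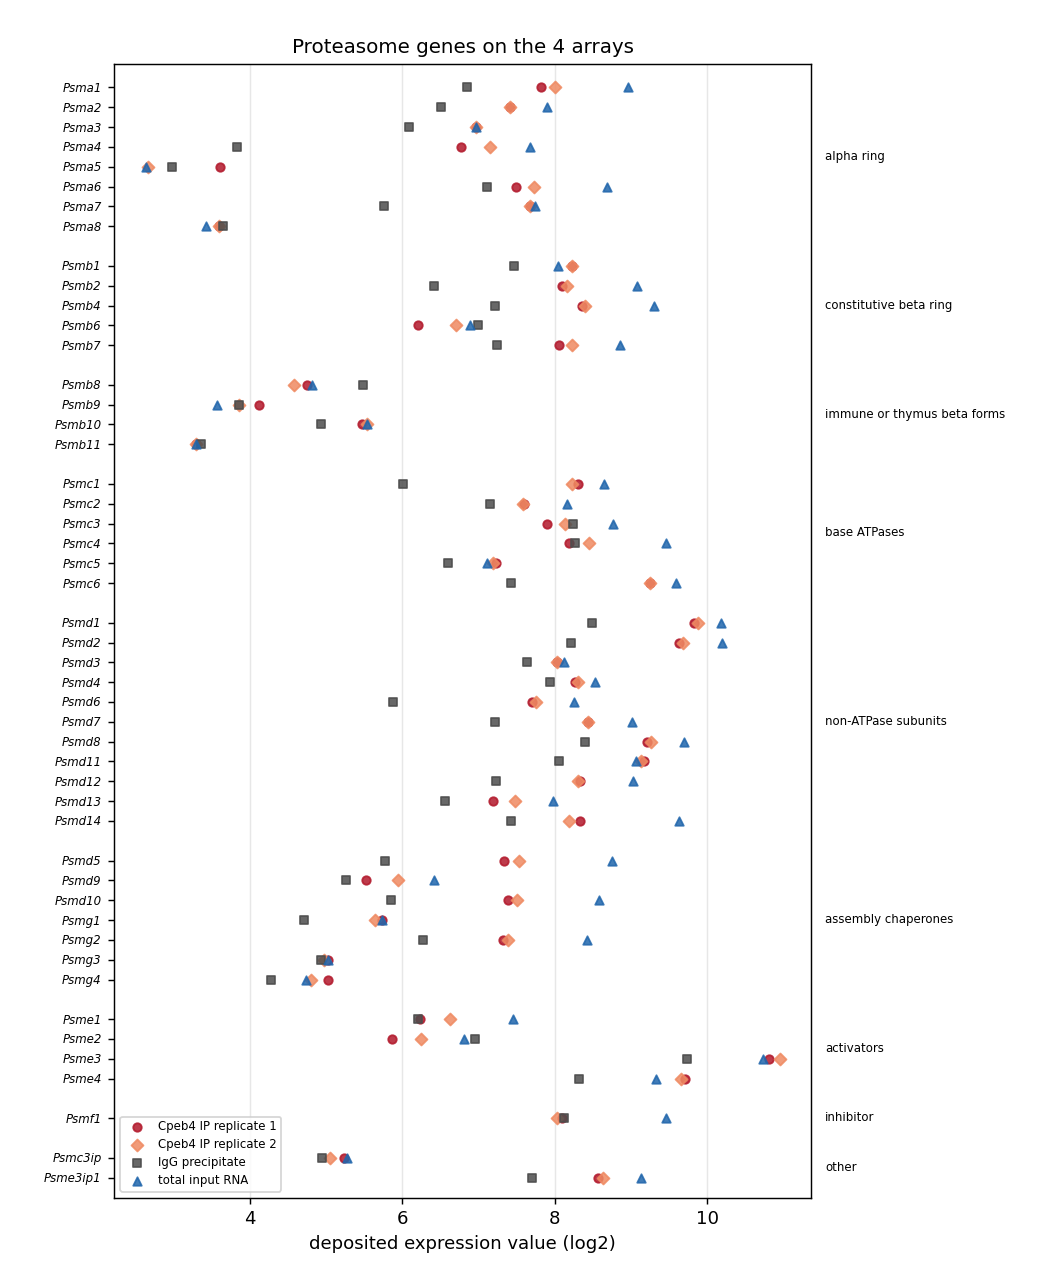
Deposited log2 expression values of the 48 proteasome genes, grouped by role, on the 4 arrays. Circles and diamonds are Cpeb4 IP replicates 1 and 2, squares the IgG precipitate and triangles total input RNA. In 28 genes both IP points lie between the IgG point on the left and the input point on the right.

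Compared with IgG, 17 of the 48 genes (35.4%) were at least 2-fold higher in both IP replicates and none was 2-fold lower. Over all tested genes 18.6% were 2-fold higher and 6.24% lower, and among genes at like input levels 38.2% and 2.10%. In both replicates 38 (79.2%) were higher than IgG by any amount, against 50.0% and 80.9%. The proteasome shares were thus close to those of other genes of such levels. The median difference of the 48 was 0.84 (0.81 and 0.87 in the replicates), against 0.08 over all tested genes and 0.79 over those at like input levels. After quantile normalization of the 4 arrays again, which gives them the same distribution, these medians were 0.33, 0.03 and 0.16. By limma 32 of 45 rose (71.1%) and 2 fell (4.44%), where 36.1% of all tested genes rose and 21.2% fell. At like input levels 65.7% rose and 5.56% fell. Of the 32 that rose, 19 also did so after quantile normalization again. The 2 that fell, Psmb8 and Psme2, did not pass with limma's standard eBayes prior. Both still fell after quantile normalization again (limma adjusted p = 0.011 and 0.0085). The 13 whose rise was lost were Psma1, Psma2, Psma3, Psmb1, Psmb7, Psmc2, Psmc5, Psmd3, Psmd8, Psmd12, Psmd13, Psmd14 and Psme3ip1. After that normalization Psmb6, Psmc3, Psmc4 and Psmf1 passed as lower than IgG.

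Compared with input, none of the 48 was 2-fold higher and 6 (12.5%) were at least 2-fold lower in both replicates. Counting any amount, 34 (70.8%) were lower in both replicates, where 38.7% of all tested genes and 60.3% of those at like input levels were. The shares 2-fold apart over all tested genes were 4.04% higher and 5.18% lower, and at like input levels 3.21% and 10.2%. The median difference was -0.47 (-0.52 and -0.45 in the replicates), against -0.01 over all tested genes and -0.22 at like input levels. After quantile normalization again they were -0.34, -0.02 and -0.07. By limma 19 of 45 fell (42.2%) and none rose, and 1 was higher and 27 lower at an unadjusted p under 0.05. Of all tested genes 15.9% fell and 10.2% rose, and of those at like input levels 31.6% and 10.0%. The number of proteasome genes that fell was 11 after quantile normalization again, 9 with the standard eBayes prior and 29 with a common IP spread. The 8 whose fall was lost after that normalization were Psmb7, Psmc2, Psmc3, Psmd2, Psmd6, Psmd7, Psme1 and Psme3ip1. The input values that set the like levels also enter these differences. Both comparisons share the IP arrays, so their counts are not independent of each other.

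**Figure D2:**
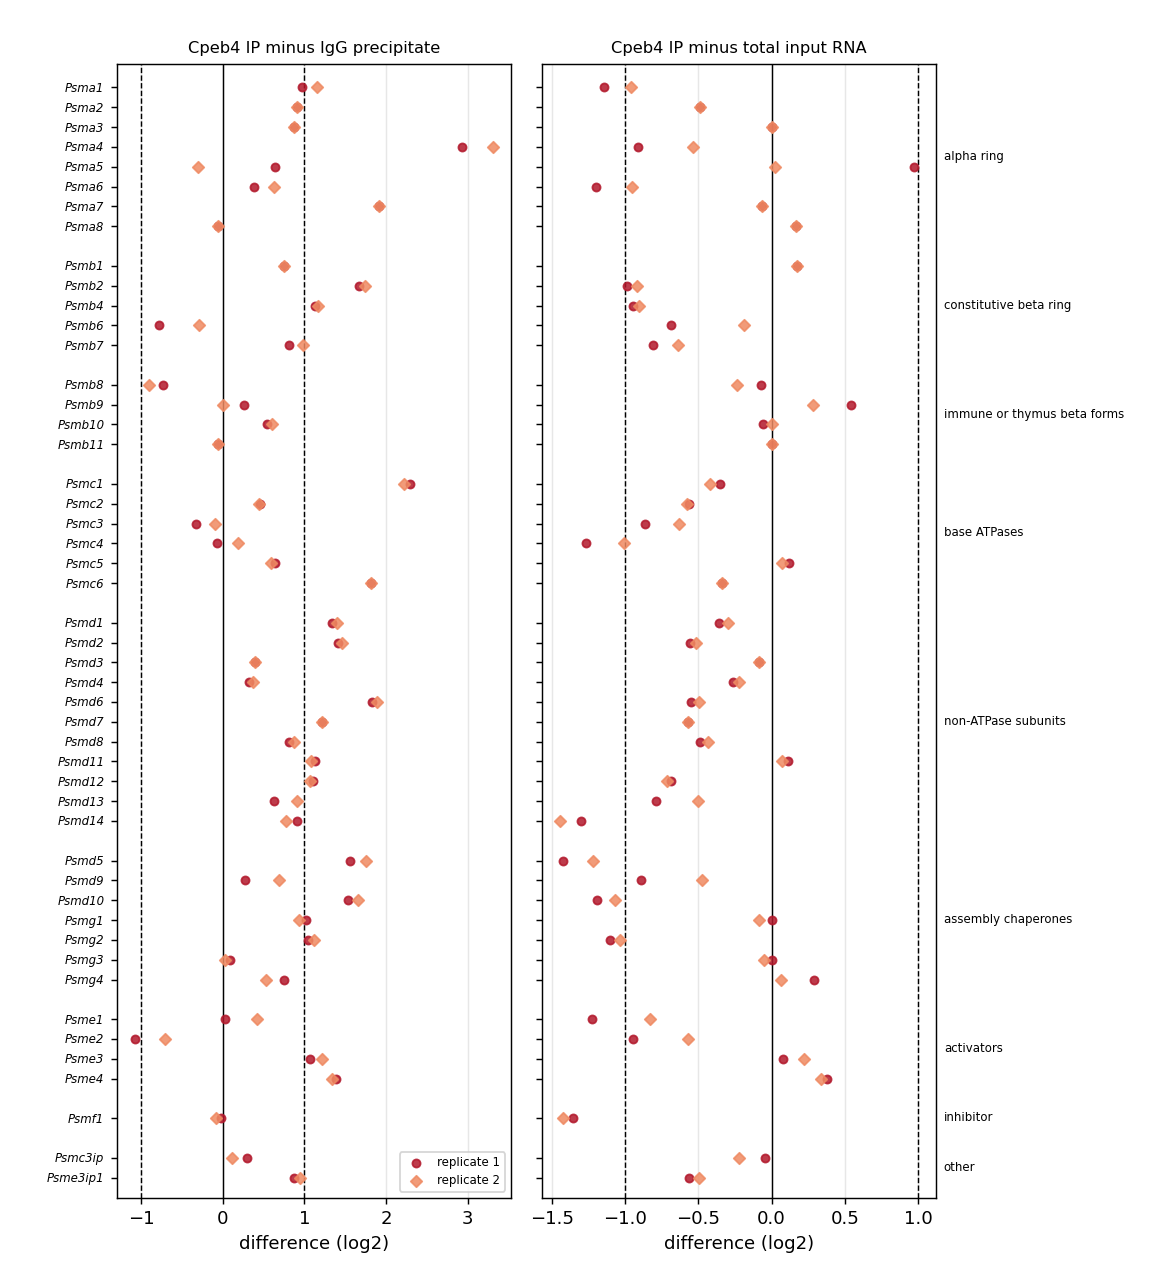
Difference on the log2 scale between each Cpeb4 IP replicate (circle, replicate 1; diamond, replicate 2) and IgG (left) or total input RNA (right) for each proteasome gene. Dashed lines mark 2-fold. Against IgG 17 genes have both points at or beyond the right line, and against input 6 have both at or beyond the left line.

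Most of these mRNAs had lower values on the IgG array than on the input array, as most genes at like input levels did. In 41 of the 48 genes (85.4%) IgG was lower than input, and in 30 (62.5%) at least 2-fold lower, with none 2-fold higher. The shares lower were 54.7% of all tested genes and 91.1% of those at like input levels, and the shares 2-fold lower 23.9% and 52.2%. The median of IgG minus input was -1.22 for the 48, against -0.15 for all tested genes and -1.04 for those at like input levels. After quantile normalization again the medians were -0.58, -0.03 and -0.21. This comparison of 1 array with 1 array was described by size and not tested.

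**Figure D3:**
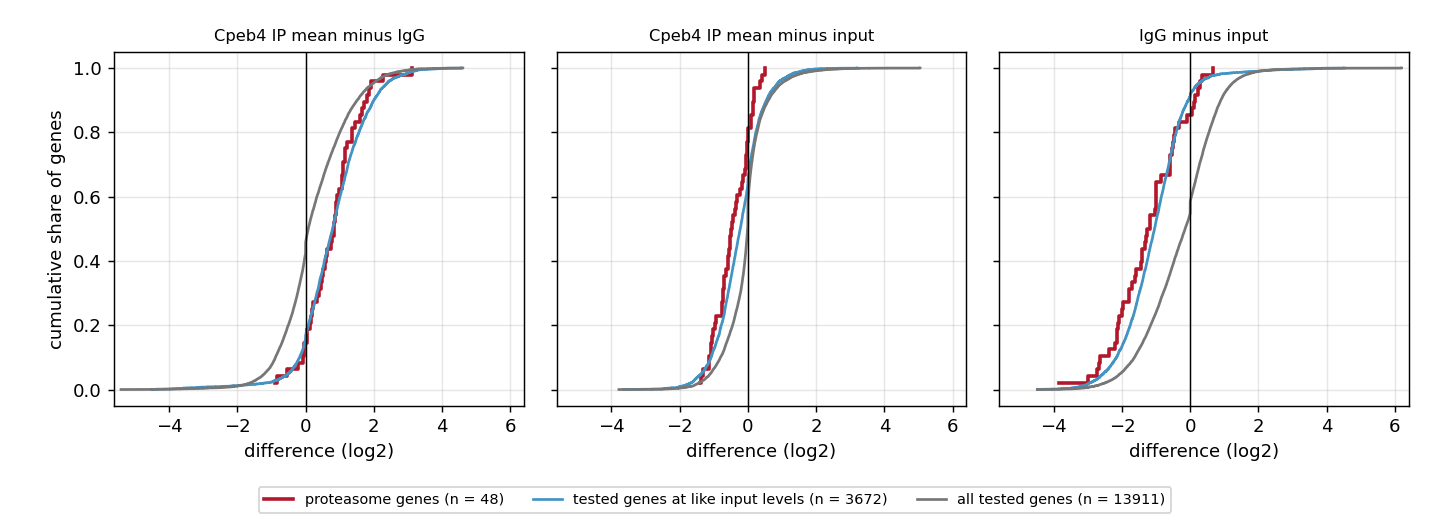
Cumulative share of genes by difference on the log2 scale for the mean of the Cpeb4 IP replicates minus IgG (left), minus input (middle) and for IgG minus input (right). The curves are the 48 proteasome genes, the 3672 tested genes at like input levels and all 13911 tested genes. On the left the proteasome curve runs along that of genes at like levels, with medians of 0.84 and 0.79, and in the middle it lies left of it, with medians of -0.47 and -0.22.

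Of the 8 alpha ring genes, 6 were tested, 5 of which rose against IgG, none fell, and 2 were 2-fold higher. Among genes at like input levels 65.7% rose, 5.56% fell and 38.2% were 2-fold higher. For all tested genes these shares were 36.1%, 21.2% and 18.6%. Psma4 (Entrez 26441) had the largest difference of the 48. Its values were 6.77 and 7.15 in the IP, 3.83 in IgG and 7.68 in input. The IP was 8.72-fold over IgG (3.12, SE 0.20, limma adjusted p = 0.0017), and IgG was 3.85 below input, the lowest of the 48 in that difference. The difference of the IP from input was -0.72 (limma adjusted p = 0.071). Psma7 (Entrez 26444) had 7.67 in each IP replicate, 5.75 in IgG and 7.74 in input, so the IP was 3.78-fold over IgG (limma adjusted p = 0.0017) and 0.07 below input. For both genes only the IgG array stood far from the others.

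Psma1 and Psma6 fell against input, by 1.05 and by 1.07 on the log2 scale (limma adjusted p = 0.0154 and 0.0179). Psma3 had exactly the same value, 6.96, in both IP replicates and input, with 6.10 in IgG. Psma2 had a rise of 0.91 over IgG, which was 0.24 and did not pass after quantile normalization again, and differed from input by -0.49 (limma adjusted p = 0.0515).

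The remaining alpha genes were at low values. Psma5 (Entrez 26442) had 3.61 and 2.67 in the IP, 2.98 in IgG and 2.64 in input. Its mean difference from input, 0.50, was the highest of the 48, but it came from replicate 1, with 0.97, against 0.02 in replicate 2. Its IP replicates had an SD of 0.67, the largest of the 48, where the median SD was 0.05, and they lay on both sides of IgG. Psma8, which replaces Psma7 in the testis, had 3.59 in each IP replicate, 3.65 in IgG and 3.43 in input, all below the level needed for testing.

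Of the 5 constitutive beta genes 4 rose against IgG, where 36.1% of all tested genes and 65.7% of those at like input levels did. Against input 3 of them fell, where 15.9% and 31.6% did. Psmb2 (Entrez 26445) had 8.09 and 8.16 in the IP, 6.42 in IgG and 9.08 in input. It rose 3.26-fold over IgG and fell by 0.95 against input (limma adjusted p = 0.0018 and 0.0142), so both IP replicates stood apart from both controls. Psmb4 was placed in the same way, with a rise of 1.15 and a fall of 0.93 on the log2 scale. Psmb1 rose by 0.75 over IgG, a difference of 0.01 after quantile normalization again, and was 0.17 above input.

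The catalytic subunits can be exchanged in immune cells, where Psmb9 replaces Psmb6 and Psmb10 replaces Psmb7, while Psmb8 takes the place of Psmb5. Psmb6 (Entrez 19175) had 6.21 and 6.70 in the IP, 7.00 in IgG and 6.89 in input. It was the only constitutive beta gene lower in the IP than in IgG, at -0.54 (limma adjusted p = 0.13), and after quantile normalization again it passed, at -1.22 (limma adjusted p = 0.0225). Its immune counterpart Psmb9 had 4.12 and 3.86 in the IP, 3.86 in IgG and 3.58 in input, and the differences of 0.13 and 0.41 passed neither test (limma adjusted p = 0.552 and 0.155). Psmb9 was the second highest of the 48 in the difference from input, at values near the level of 3.84 needed for testing.

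Psmb7 had 8.05 and 8.22 in the IP, 7.24 in IgG and 8.86 in input, so that it rose by 0.90 over IgG and fell by 0.72 against input (limma adjusted p = 0.0081 and 0.0303). After quantile normalization again neither passed, at 0.16 and -0.58 (limma adjusted p = 0.335 and 0.057). Psmb10 had 5.47 and 5.54 in the IP, 4.94 in IgG and 5.54 in input. The rise over IgG was 0.57 (limma adjusted p = 0.0193), and it was at the level of input, with a difference of -0.03. Neither gene's IP values overlapped with IgG.

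Psmb8 (Entrez 16913) had 4.75 and 4.58 in the IP, 5.49 in IgG and 4.82 in input. It fell by 0.82 against IgG (limma adjusted p = 0.01) and differed from input by -0.16. It was the gene with the highest IgG minus input of the 48, 0.67. Psmb11, the thymus form, was low, at 3.30 in both IP replicates and input and 3.36 in IgG. In all, none of the 4 immune or thymus forms was 2-fold from either control, and none passed the test against input. Over all tested genes 18.6% were 2-fold above IgG and 6.24% below it. The shares 2-fold above and below input were 4.04% and 5.18%, and 10.2% rose and 15.9% fell against input. So few forms cannot be told apart from other genes by these counts. Of the tested markers of other cell types 13 of 17 rose against input, and their part in these values was not tested. Unadjusted, none of the 3 tested forms had p under 0.05 there.

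The promoters of these genes were read in RefSeq's table (build GRCm38.p6, 250 bases before to 50 after the gene start), which held 44 promoters of 40 of the 48 genes. Proteasome genes are known targets of Nfe2l1 and Nfe2l2, which bind the antioxidant response element. Its core TGACNNNGC, searched on both strands, was found in 5 of the 44 promoters (11.4%) and in 12.4% of all 32851. Of the 5, the sites of a beta subunit, an ATPase and a chaperone are shown because their RNAs were placed differently. For Psmc6 the IP was far above IgG. For Psmb6 it was lower than IgG and for Psmd9 higher, at -0.54 and 0.48, and neither passed (limma adjusted p = 0.13 and 0.128). Psmd12 and Psme4, whose sites are not shown, were like Psmc6 2-fold above IgG in both replicates, at 1.09 and 1.36. The match is in capitals, and each is printed along the strand of the gene.
Psmb6, chr11:70525338-70525366, plus strand: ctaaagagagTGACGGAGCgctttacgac
Psmc6, chr14:45329587-45329615, plus strand: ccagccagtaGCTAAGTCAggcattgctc
Psmd9, chr5:123228149-123228177, plus strand: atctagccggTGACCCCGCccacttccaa
The share of proteasome promoters with a match was close to that of all promoters, and the match in Psmc6 is on the opposite strand.

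Of the 6 base ATPases 4 rose against IgG and 3 fell against input. The shares that rose against IgG were 36.1% of all tested genes and 65.7% at like input levels. Those that fell against input were 15.9% and 31.6%. Psmc1 (Entrez 19179) had 8.30 and 8.23 in the IP, 6.01 in IgG and 8.65 in input. It rose 4.79-fold over IgG (2.26, limma adjusted p = 0.0016), and its difference from input was -0.38 (limma adjusted p = 0.0955). Psmc6 rose 3.51-fold over IgG, with 9.25 in each IP replicate, 7.43 in IgG and 9.59 in input. In both genes the IP lay near input and far from IgG.

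Psmc4 (Entrez 23996) and Psmc3 (Entrez 19182) were placed the other way, near IgG and below input. Psmc4 had 8.19 and 8.45 in the IP, 8.27 in IgG and 9.46 in input, so its IP replicates lay on both sides of IgG and both were more than 2-fold below input. It fell by 1.14 against input (limma adjusted p = 0.0172) and differed from IgG by 0.05, which was -0.61 after quantile normalization again. Psmc3 had 7.90 and 8.13 in the IP, 8.24 in IgG and 8.77 in input. It fell by 0.75 against input (limma adjusted p = 0.036) and was -0.22 from IgG (limma adjusted p = 0.296). After quantile normalization again it was -0.60 from input and no longer passed, and it was -0.89 from IgG and passed (limma adjusted p = 0.0683 and 0.0153).

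Psmc2 and Psmc5 rose over IgG by 0.44 and 0.61, but after quantile normalization again the differences were -0.29 and -0.05. Against input Psmc2 fell by 0.57 and Psmc5 was 0.10 higher without passing (limma adjusted p = 0.691).

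All 11 non-ATPase subunits of base and lid had both IP replicates higher than IgG. Of all tested genes 50.0% did, and of those at like input levels 80.9%. In 10 of the 11 subunits both were lower than input (38.7% and 60.3%), and Psmd11 was 0.09 above it. Against IgG 10 rose (36.1% and 65.7%) and 6 were 2-fold higher (18.6% and 38.2%), with differences from 0.34 for Psmd4 to 1.86 for Psmd6. Of the 10, Psmd3, Psmd8, Psmd12, Psmd13 and Psmd14 no longer rose after quantile normalization again. For Psmd3 and Psmd4 the difference of 0.40 and 0.34 became -0.33 and -0.35 after quantile normalization again. Psmd6 (Entrez 66413), a lid subunit, had 7.71 and 7.76 in the IP, 5.88 in IgG and 8.26 in input. It rose 3.63-fold over IgG and fell by 0.52 against input (limma adjusted p = 0.0017 and 0.0454), and the fall, -0.37 after quantile normalization again, did not pass there.

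The scaffold subunits of the base, Psmd1 and Psmd2, rose by 1.37 and 1.44 over IgG, and Psmd2 fell by 0.54 against input while Psmd1, at -0.33, did not pass (limma adjusted p = 0.042 and 0.132). The lid subunit Psmd7 had 8.44 in each IP replicate, 7.22 in IgG and 9.01 in input, a rise of 1.22 over IgG and a fall of 0.57 on the log2 scale against input.

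Psmd14 (Entrez 59029), the enzyme that cuts ubiquitin chains off substrates, was the subunit most reduced against input. It had 8.33 and 8.19 in the IP, 7.42 in IgG and 9.63 in input. It fell by 1.37 against input in limma (adjusted p = 0.0106), a difference of -1.31 after quantile normalization again. It rose by 0.84 over IgG (limma adjusted p = 0.0086), which was 0.10 after that normalization. Its partner in the lid, Psmd7, differed from input by -0.57.

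Assembly chaperones made up 3 of the 6 genes that were 2-fold below input. Psmd5, Psmd10 and Psmg2 were also 2-fold above IgG, and no other of the 48 was placed beyond 2-fold on both sides. That is 6.25% of the 48, where 0.633% of all tested genes and 1.44% of those at like input levels were so placed. Psmd5 (Entrez 66998), a chaperone that binds the ATPase Psmc2, had 7.33 and 7.53 in the IP, 5.77 in IgG and 8.75 in input. It rose 3.15-fold over IgG and fell by 1.32 against input (limma adjusted p = 0.0025 and 0.0117).

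Psmd10 (Entrez 53380), known as gankyrin, which binds the ATPase Psmc4, had 7.39 and 7.51 in the IP, 5.85 in IgG and 8.58 in input. It rose 3.03-fold over IgG and fell by 1.13 against input (limma adjusted p = 0.0021 and 0.0121). Psmg2 (Entrez 107047) had 7.32 and 7.39 in the IP, 6.27 in IgG and 8.42 in input, and rose by 1.08 over IgG and fell by 1.07 against input (limma adjusted p = 0.0039 and 0.0122). After quantile normalization again the differences of these 3 genes from input were -1.17, -0.97 and -0.89, so that only Psmd5 remained 2-fold below it. Against IgG the mean differences of Psmd5, Psmd10 and Psmg2 were then 1.19, 1.09 and 0.46, so Psmd5 alone was beyond 2-fold on both sides.

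The partner chaperones differed in their values. Psmg1, which pairs with Psmg2 in the assembly of the alpha ring, had 5.73 and 5.64 in the IP, 4.71 in IgG and 5.73 in input. Its rise over IgG was 0.97 (limma adjusted p = 0.0051), and its difference from input was -0.04 where that of Psmg2 was -1.07. Psmg3 and Psmg4, which pair with each other, were close to input, at -0.03 and 0.18. Psmg4 had 5.03 and 4.80 in the IP, 4.28 in IgG and 4.74 in input, and rose by 0.63 over IgG (limma adjusted p = 0.0266). Psmd9, a chaperone of the ATPase ring, was 0.48 above IgG and 0.68 below input and passed neither test. No test of the difference between members was made.

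Among the activators, the interferon-induced pair and the nuclear pair had different values. Psme1 and Psme2 together form a cap that is linked to antigen presentation. Psme1 had 6.23 and 6.63 in the IP, 6.21 in IgG and 7.46 in input, and fell by 1.03 against input (limma adjusted p = 0.0341), which was -0.83 and did not pass after quantile normalization again (limma adjusted p = 0.0694). Psme2 (Entrez 19188) had 5.87 and 6.24 in the IP, 6.95 in IgG and 6.82 in input. It fell by 0.89 against IgG (limma adjusted p = 0.022), the lowest of the 48 there, and its difference from input of -0.76 did not pass (limma adjusted p = 0.0633). Both IP replicates of Psme2 were below both controls.

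Psme3 and Psme4, whose proteins are mostly nuclear, were higher in the IP than on both control arrays in both replicates. Among the other genes Psmb1, Psmc5, Psmd11 and Psmg4 were placed in the same way. Psme3 had 10.81 and 10.95 in the IP, 9.73 in IgG and 10.73 in input, and rose 2.21-fold over IgG (limma adjusted p = 0.0042) with 0.15 over input (limma adjusted p = 0.541). Psme4 (Entrez 103554), which encodes the activator that caps proteasomes during spermatogenesis and DNA repair, had 9.71 and 9.66 in the IP, 8.32 in IgG and 9.32 in input. It rose 2.57-fold over IgG (limma adjusted p = 0.0024), and at 0.36 over input, 1.28-fold, it did not pass (limma adjusted p = 0.106).

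Psmf1 (Entrez 228769), known as PI31, an inhibitor of the core particle in vitro, had the lowest difference from input of the 48. Its values were 8.10 and 8.03 in the IP, 8.12 in IgG and 9.46 in input. It fell by 1.39 against input (SE 0.12, limma adjusted p = 0.0098), a difference of -1.29 after quantile normalization again. Its IP and IgG values differed by only -0.05 (limma adjusted p = 0.757), so that the IP and IgG arrays lay together, below input. After quantile normalization again the difference from IgG was -0.73.

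Of the 2 genes that are not subunits, Psme3ip1 rose by 0.91 over IgG and fell by 0.53 against input (limma adjusted p = 0.0057 and 0.0451), and neither passed after quantile normalization again, at 0.20 and -0.38. Psmc3ip was close to both controls, at 0.20 and -0.13, and passed neither test.

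A list of 32 other genes of the pathway (assembly, regulators of transcription, shuttle factors and enzymes that work on the proteasome) held 23 measured genes, all tested. Against IgG 16 rose (69.6%) and none fell, where 36.1% of all tested genes and 65.7% of those at the proteasome genes' input levels rose, and at an unadjusted p under 0.05 in limma 17 were higher and none lower. Against input none rose and 7 fell (30.4%), where 15.9% and 31.6% fell, and at an unadjusted p under 0.05 none was higher and 10 lower. The medians were 0.90 and -0.32, against 0.79 and -0.22 at those input levels, so the list was near other genes of such levels. Zfand2a, a stress-induced partner of the regulatory particle, had 7.01 and 6.81 in the IP, 4.71 in IgG and 7.86 in input, a rise of 2.20 over IgG. Pomp, the chaperone of the beta ring, had 6.85 and 7.11 in the IP, 4.88 in IgG and 7.38 in input, and rose by 2.10.

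The lowest of the list against IgG were Zfand5 and Vcp, the segregase that extracts ubiquitinated proteins, at -0.23 and -0.21 (limma adjusted p = 0.171 and 0.228). Against input the highest were Rad23b, a shuttle factor, at 0.22 and Sem1, a small lid subunit, at 0.14, and neither passed (limma adjusted p = 0.283 and 0.529). Zfand2b fell by 1.01 and Ufd1, a cofactor of Vcp, fell by 0.99 against input (limma adjusted p = 0.0127 and 0.0129).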

How the data were processed

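Expression was measured on 4 Affymetrix arrays, 1 per sample. The authors deposited log2 expression values per probe set; RMA and affy are named in the submitters' processing notes, and versions and the genome build are not given in the sources used here. Gene symbols are those of GEO's platform annotation and may be outdated: 23185 of 25206 probe sets had 1 symbol. The members, lists, tests and the rule for named genes were chosen with earlier results of these data known. That rule was the 4 highest and 4 lowest members per comparison, genes 2-fold from both controls, the beta pairs, and the 2 highest and 2 lowest other pathway genes.

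Differences were computed with limma 3.58.1 in R 4.3.3 (lmFit, 3 groups) over named genes with a mean at or above the 40th percentile. In 3032 tested genes the IP replicates had equal values (within 1e-09), which pull the standard eBayes prior to an SD of 0.00621. The prior was therefore estimated over genes whose replicates differ (SD 0.110, 3.07 degrees of freedom) and applied to all. The procedure was tried on simulated data in which every array had the same spread. That trial could not show whether the control arrays vary like the IP replicates. The number of arrays limits the precision. Alternatives were other filters, priors, thresholds and fold limits, quantile normalization again and each IP replicate left out. Marker lists covered erythroid cells, macrophages, megakaryocytes, neutrophils, hepatocytes and lymphoid cells.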

Additional observations from a re-analysis of the deposited data

How the results depend on the processing

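The counts of 2-fold differences followed the fold chosen: at 1.5-fold 28 genes were above IgG, 2 below IgG and 14 below input, and at 4-fold 2 were above IgG and 0 below input. Quantile normalization again left 9 genes 2-fold above IgG (8 of the 17 among them), 1 below IgG (Psme2) and 3 below input (Psmd14, Psmd5 and Psmf1). It left 19 genes that rose and 6 that fell against IgG, and 11 that fell against input, all of them among the 19. The medians then were 0.33 against IgG, -0.34 against input and -0.58 for IgG minus input. That normalization moved the median of IP minus IgG over all probe sets to 0.03, in place of -0.08. Against IgG it turned the direction of Psma6 (-0.24), Psmc2 (-0.29), Psmc4 (-0.61), Psmc5 (-0.054), Psmd3 (-0.33), Psmd4 (-0.35) and Psme1 (-0.34), and against input of Psma7 (0.087) and Psmd3 (0.082). The cause was not tested.

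With the standard eBayes prior 25 genes rose and 0 fell against IgG (34 higher and 2 lower at an unadjusted p under 0.05 in the test reported), and 9 fell and 1 rose (Psmb1) against input. With trend and robust the numbers were 19 and 0, and 7 and 1 (Psmb1). The IP replicates of Psmb1 had equal values, and its difference from input was 0.17 (limma adjusted p = 0.396 in the test reported). With a common IP spread 29 fell and 1 rose (Psme4) against input. The other filters and an adjusted p below 0.1 kept all counts within 1.5 times.

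Without either IP replicate in turn, 18 genes were 2-fold above IgG, 0 to 1 below it (Psme2 without replicate 2) and 6 to 9 below input, with medians of 0.81 to 0.87 against IgG and -0.52 to -0.45 against input. Against IgG, Psma5 was -0.31 without replicate 1 and 0.64 without replicate 2, and Psmc4 was 0.18 and -0.079. A single IP array leaves no residual degree of freedom, so limma was not run there. No paired analysis was possible because the control arrays carry no replicate number.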
